A study of Saccharomyces cerevisiae with 118 samples.

Results

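Copper metallothionein and copper uptake genes were followed in budding yeast (Saccharomyces cerevisiae) as 5 genes of the 6664 nuclear genes in each table: CUP1-1, CUP1-2, CRS5, CTR1 and CUP2. They were taken by name, and every one was read in all 118 samples. The samples came from diploid cells of the Mother Enrichment Program (MEP), in which oestradiol stops daughter cells from dividing so that mother cells age together in liquid culture. In the main table, wild-type cells grown on galactose (3 libraries per age) were set against wild-type cells grown on glucose (3 log phase libraries, and 4 each at 24 h and 48 h), each in YP medium, with fructose (2 libraries per age) and with sucrose, raffinose, raffinose plus galactose and acetate (1 library per age). Glucose and acetate also had 1 library each at 72 h. The same table held cat8, cox9 gal80 and snf4 deletion mutants on galactose (2 libraries per group, 1 for snf4 at log phase) and Pgpd-HAP4 cells on glucose, in which the strong GPD promoter drives the respiratory activator HAP4 (2 libraries per age). A second table held wild-type cells of experiment E53, aged on 1 sugar and then moved to the same or the other sugar, with log phase and 24 h libraries on each (3 libraries per group). Another held fractions of 48 h Pgpd-HAP4 cells on glucose sorted by wheat germ agglutinin (WGA), a lectin that stains bud scars (2 libraries per fraction), with 1 low WGA and 1 high WGA fraction of wild type. The titles of the E36 Pgpd-HAP4 fractions name them by GFP signal instead, GFP high for the fraction labelled low WGA and GFP low for that labelled high WGA, while the E66 titles name WGA, and whether the experiments differed in how the fractions were gated was not tested. The study describes sorting on GFP as well as WGA signal, where GFP tags the mitochondrial protein Tom70, its marker of entry into senescence. The last held 13 deletion strains on glucose (adr1, cat8, clb5, dot6 tod6, gcn4, hap4, mig1, pmr1, rox1, sip4, snf4, tec1 and yak1), with 1 library per strain at log phase and at 48 h and 1 of pmr1 at 24 h. All strains carry the MEP construct, aged samples were purified mothers, and log phase samples were whole cultures that include daughters.

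Yeast takes up copper through Ctr1, a high-affinity transporter of the plasma membrane, after reductases of the Fre family have reduced the metal. Copper excess is held by metallothioneins, small cysteine-rich proteins encoded by CUP1 and CRS5, and Cup2 (also called Ace1) is the transcription factor that switches on CUP1 when copper is high. Mac1 is the factor that works at the other end, switching on CTR1 and FRE genes when copper is low. Copper is needed for cytochrome c oxidase in respiration and for the superoxide dismutase Sod1.

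CUP1-1 (YHR053C, VIII:212535-212720, minus strand) and CUP1-2 (YHR055C, VIII:214533-214718, minus strand) are units of a tandem repeat, and in the R64 reference their coding sequences were identical over 186 of 186 bases, within an identical stretch of 1988 bp. A read from the repeat therefore cannot be given to one copy. The 2 rows differed by at most 27 reads in any sample and held equal reads in 8 of 118 samples, and the chi-square of their difference per sample was 0.164, where independent counts would give 1. The rows were summed for tests as 1 gene, CUP1, and its levels are given as the mean of the copies. Laboratory strains differ in how many CUP1 units they carry, so more transcript per unit and more units cannot be told apart. CRS5 (YOR031W, XV:389213-389422, plus strand), CTR1 (YPR124W, XVI:786208-787428, plus strand) and CUP2 (YGL166W, VII:191129-191806, plus strand) are single genes.

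The sequence of CRS5 is shown because the reference carries an in-frame stop early in its reading frame, at codon 9 of 70, where the annotation calls the gene a pseudogene. The stop is in capitals in the first 48 bases of the frame (R64, XV:389213-389260, plus strand), so CRS5 values below are transcript levels only.
CRS5: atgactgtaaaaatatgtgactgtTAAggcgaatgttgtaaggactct

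Promoter stretches of CUP1-1 and CTR1 are shown because they hold the letters that distinguish these genes from the other members. Capitals mark TTTTGCTG, letters found in binding sites of Cup2, in the bases 290 to 171 before the CUP1-1 start codon (R64, VIII:212891-213010, minus strand). They also mark TTTGCTC, letters found in binding sites of Mac1, in the bases 350 to 291 before the CTR1 start codon (R64, XVI:785858-785917, plus strand), and either may stand on the opposite strand as CAGCAAAA or GAGCAAA.
CUP1-1: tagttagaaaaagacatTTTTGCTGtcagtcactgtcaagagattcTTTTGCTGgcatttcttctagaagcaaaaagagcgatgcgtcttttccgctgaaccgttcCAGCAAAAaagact
CTR1: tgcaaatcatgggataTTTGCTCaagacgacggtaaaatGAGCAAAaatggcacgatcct

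On both strands of the 500 bp before the start codon, TTTTGCTG occurred 3 times at CUP1, and 0.1% of 6000 promoters of that length held it 3 or more times (4.03% held it at least once). TTTGCTC occurred 2 times at CTR1, and 0.35% of promoters held it 2 or more times (8.62% at least once). CRS5 and CUP2 held neither in this window. The motifs share letters but a match to one cannot be a match to the other, and a match is a description of letters, not of a bound site.

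The depth was 2901884 to 15288342 reads per library in the main table, 4542794 to 16704695 in the media shifts, 561582 to 5483467 in the sorted fractions and 3725321 to 22453467 in the glucose mutants. The targeted genes were checked first. CAT8, COX9, GAL80 and SNF4 had at most 4 reads in their deletion strains on galactose, the genes deleted on glucose had at most 21 reads, and HAP4 stood at 3896 to 8754 in Pgpd-HAP4 cells against 254 to 1950 in wild type of the main table, and at 2286 to 8904 in Pgpd-HAP4 libraries against 1062 to 1456 in wild type of the table of sorted fractions. Genes that a/alpha diploids silence were mostly not at 0. Apart from HO, their medians in the main table ran from 5.31 for MFA2 to 143 for STE4, and FUS1 reached 373. The summed level of all 10 genes differed with age on glucose, at 1276 to 1593 at 48 h against 610.6 to 730.5 at log phase. HO had a median of 404 in the main table (264 to 985). The strains that the study lists have HO replaced by part of the MEP construct, so the sum does not report silencing alone. The part of these 10 genes in the results was not tested. Levels are normalised counts, that is reads scaled by the authors' size factors, and are comparable within a table.

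Per kb of coding length, in log phase cells on glucose, CTR1 was at 1629 ± 236 normalised counts, CUP2 at 397 ± 113 and CRS5 at 306 ± 32.2 (SD, n = 3 each). CUP1 was at 2080 ± 370 for both reference copies together, or 1040 ± 185 as their mean (SD, n = 3), so its place beside CTR1 depends on how its reads are shared out. The counts of the copies lay closer together than independent counts would (chi-square 0.164 per sample). Reads counted at both copies would enter the sum more than once, so the 2080 may be too high, and whether this happened was not tested. CUP2 and CRS5 did not differ beyond their spread in this order.

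Galactose against glucose asked how the carbon source sets these transcripts at each age. CUP1 was lower on galactose at log phase (4.42-fold after quantile normalisation) and at 24 h, while CTR1 was higher and CUP2 slightly lower at 24 h. Levels below are counts without quantile normalisation. CUP1 stood at 67.9, 32.7 and 58.2 at log phase on galactose, against 161, 229 and 190 on glucose. At 24 h it stood at 47.2, 56.3 and 48.0 on galactose, against 138, 143, 91.1 and 123 on glucose. At neither age did the groups overlap, and every galactose library lay under every glucose library. The share of all genes whose groups did not overlap was not counted, here or below. At 48 h CUP1 stood at 89.9, 151 and 59 on galactose, against 242, 275, 150 and 149 on glucose, and the groups overlapped.

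The log2 difference of CUP1, galactose minus glucose, was -2.14 ± 0.32 at log phase (standard error, limma with Benjamini-Hochberg adjustment over all genes, adjusted p = 0.00676), a 4.42-fold fall. At 24 h it was -1.28 ± 0.17 (adjusted p = 0.00201) and at 48 h -0.95 ± 0.34 (adjusted p = 0.0695), which did not pass the threshold of 0.01. CUP1 fell at log phase and 24 h by this test, and 2.97% and 6.56% of all genes tested did so. Libraries of the same experiment deviated together, and with the experiment as a block the CUP1 difference was -2.09 (adjusted p = 0.0697) at log phase and -1.39 (adjusted p = 0.0328) at 24 h, past the threshold at neither age. Within experiment E34 CUP1 was at 32.7 on galactose and 190 on glucose at log phase, and within the experiment that the labels leave without a number (called unnumbered below) at 67.9 on galactose and 161 on glucose. At log phase the call held in 1 of 6 fits without a library, that without the unnumbered galactose library, and the difference ran between -2.41 and -1.84 with adjusted p up to 0.0315. At 24 h it was lost only without the unnumbered galactose library (adjusted p = 0.0107).

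CTR1, the uptake transporter, stood at 5498, 3440 and 2565 at log phase on galactose, against 2018, 2261 and 1688 on glucose. At 24 h it stood at 2076, 1856 and 1640 on galactose, against 1155, 1079, 1154 and 1198 on glucose, and at 48 h at 1865, 1828 and 1972 on galactose, against 483, 701, 988 and 965 on glucose. The galactose libraries lay above the glucose libraries at all 3 ages, with no overlap. The log2 difference was 0.95 ± 0.28 at log phase (adjusted p = 0.051), 0.64 ± 0.09 at 24 h (adjusted p = 0.00274) and 1.21 ± 0.26 at 48 h (adjusted p = 0.012). CTR1 therefore rose by the test at 24 h, as did 7.48% of genes, and missed the threshold at log phase, where 6.27% of genes rose, and at 48 h, where 6.25% did. The 48 h difference passed on the deposited scale (1.32, adjusted p = 0.00446). With the experiment as a block the 24 h difference was 0.70 (adjusted p = 0.0481), and without the E34 galactose library its adjusted p was 0.0142.

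CUP2, the activator of CUP1, stood at 333, 342 and 320 at 24 h on galactose, against 376, 442, 444 and 429 on glucose. The groups did not overlap, and the difference of -0.40 ± 0.07 passed (adjusted p = 0.00751). It was -0.53 ± 0.22 at log phase (adjusted p = 0.12) and -0.48 ± 0.10 at 48 h (adjusted p = 0.0116), where CUP2 stood at 380, 372 and 327 on galactose, against 472, 527, 489 and 579 on glucose. At 24 h the call was lost on the deposited scale (-0.35, adjusted p = 0.0134), with the experiment as a block (-0.32, adjusted p = 0.0917) and in 6 of 7 fits without a library (adjusted p up to 0.0289, with the unnumbered glucose library the exception).

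CRS5, the minor metallothionein gene, passed at none of the 3 ages. At 48 h it stood at 183, 145 and 128 on galactose, against 373, 217, 200 and 222 on glucose, and the groups did not overlap (difference -0.51 ± 0.23, adjusted p = 0.132). At log phase its difference was -0.01 ± 0.19, and on the deposited scale 0.36 with adjusted p = 0.174, so its direction there depended on the scaling. Among all genes tested, 6.74% fell at 48 h.

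**Figure D1:**
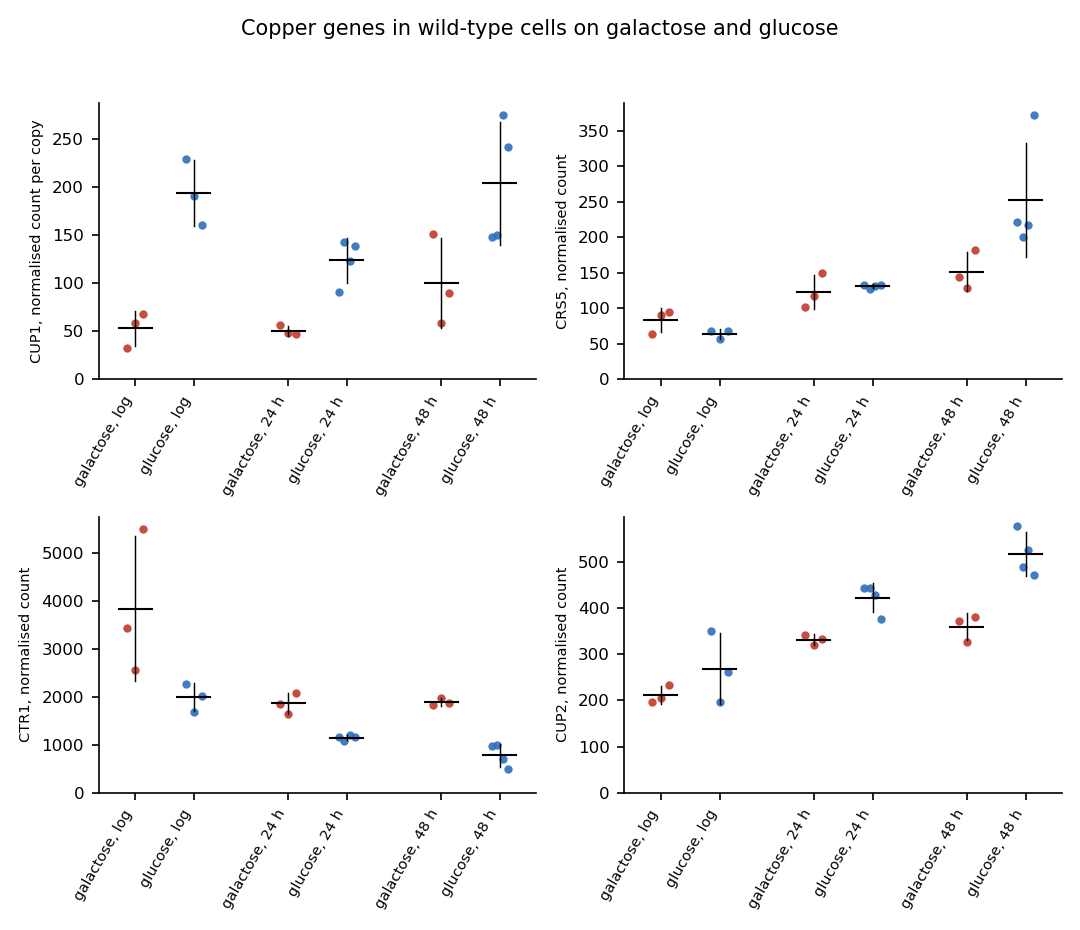
Normalised counts of CUP1 (mean of its copies), CRS5, CTR1 and CUP2 in wild-type cells on galactose (red) and glucose (blue) at log phase, 24 h and 48 h, with 1 point per library, the mean as a horizontal line and 1 SD as a vertical line. CUP1 on galactose stayed between 32.7 and 67.9 at log phase, under the 161 to 229 of glucose, and the CTR1 points on galactose lay above those on glucose at each age.

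Of 25 other genes of copper handling (copper uptake and Mac1 regulation, delivery, copper enzymes, and vacuolar or tolerance genes), 3 to 7 passed at each age. At log phase 2 rose (8% of the 25, beside 6.27% of all genes) and 1 fell (4%, beside 2.97%): COX17, which carries copper to cytochrome c oxidase, at 446 on galactose and 230 on glucose, SCO1, which inserts it, at 532 on galactose and 268 on glucose, and CCS1, the copper chaperone of Sod1, at 937 on galactose and 1779 on glucose. The median difference of the 25 was 0.27 on the log2 scale, beside -0.11 over all genes. At 24 h none rose (beside 7.48% of all genes) and 5 fell (20%, beside 6.56%), namely IRC7, FET4, PCA1, CCC2 and CCS1, with a median of 0.13 beside -0.05 over all genes, and the largest fall was that of FET4, a low-affinity metal transporter, at 499 on galactose and 1047 on glucose (-1.14 ± 0.14, adjusted p = 0.00135). At 48 h 5 rose (REE1, CUP9, COX11, COX23 and CMC1, 20% beside 6.25%) and 2 fell (BSD2 and PCA1, 8% beside 6.74%), with a median of 0.07 beside -0.01 over all genes, and on the deposited scale COX23 and CMC1 did not pass (0.34 and 0.42). MAC1 itself stood at 238 on galactose and 230 on glucose at log phase (-0.15 ± 0.13, adjusted p = 0.391), and FRE1, the main cell-surface copper reductase, at -0.25 ± 0.42 (adjusted p = 0.678). SOD1 was at 0.44 ± 0.15 (adjusted p = 0.0737).

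Age was compared next, within each sugar. On glucose CRS5 and CUP2 rose and CTR1 fell between log phase and 48 h, while CUP1 levels at 48 h and log phase overlapped. CRS5 stood at 373, 217, 200 and 222 at 48 h, against 67.8, 68.6 and 56.5 at log phase, and CUP2 at 472, 527, 489 and 579 at 48 h, against 261, 350 and 197 at log phase. CTR1 stood at 483, 701, 988 and 965 at 48 h, against 2018, 2261 and 1688 at log phase. In none of the 3 did the groups overlap.

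The difference between 48 h and log phase on glucose was 1.09 ± 0.24 for CRS5 (adjusted p = 0.00546), -1.25 ± 0.28 for CTR1 (adjusted p = 0.00597), 0.72 ± 0.17 for CUP2 (adjusted p = 0.00839) and -0.18 ± 0.28 for CUP1 (adjusted p = 0.58). Without quantile normalisation CRS5 came to 1.94 (adjusted p = 0.000167), and CUP1 changed sign (0.04). In this comparison 19.7% of genes rose and 27.6% fell, so a call is common among all genes, and the share of calls that were rises was 41.7% here and 54.7% on the deposited scale. Quantile normalisation also moved the median of all genes, which was -0.12 with it and 0.05 without it. CTR1 fell already at 24 h, at 1155, 1079, 1154 and 1198 against the log phase values above (-0.69 ± 0.09, adjusted p = 0.00137), a call that held without any 1 of the 7 libraries. At 24 h CRS5 stood at 132, 127, 134 and 131 (0.39 ± 0.07, adjusted p = 0.00544, 1.03 on the deposited scale), CUP1 at -0.81 ± 0.20 (adjusted p = 0.0164) and CUP2 at 0.55 ± 0.18 (adjusted p = 0.0392). From either CUP1 copy alone the 24 h difference of CUP1 was -1.06 and passed, so that verdict depended on the sum. At 24 h 11.6% of genes rose and 13.7% fell. In fits without a library the 48 h calls held in 2 of 7 for CRS5, 3 of 7 for CTR1 and 1 of 7 for CUP2, and the 24 h call of CRS5 in 1 of 7. The libraries whose loss ended the 48 h calls included, for all 3 genes, the unnumbered and E34 log phase libraries and the E34 48 h library, and adjusted p rose to 0.0225, 0.0219 and 0.0269. With the experiment as a block none of these calls passed, with adjusted p of 0.0283 for CTR1 and 0.0381 for CRS5 at 24 h, and of 0.015 for CRS5, 0.0119 for CTR1 and 0.0487 for CUP2 at 48 h.

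On galactose no member passed at 24 h or 48 h against log phase, where 2.27% and 3.82% of all genes did. CTR1 was lower in all aged libraries than in any log phase library, by -0.93 ± 0.26 at 24 h (adjusted p = 0.07) and -0.89 ± 0.24 at 48 h (adjusted p = 0.0545). CUP2 was higher in all of them, by 0.60 ± 0.11 at 24 h (adjusted p = 0.0252) and 0.68 ± 0.13 at 48 h (adjusted p = 0.0187, and 0.0084 on the deposited scale with a difference of 0.77). CRS5 stood at 183, 145 and 128 at 48 h, against 95.6, 64.5 and 90.1 at log phase (0.55 ± 0.21, adjusted p = 0.13). The change with age on galactose was set against that on glucose as an interaction, and none of the 4 passed while 12.6% of all genes did. The interaction was 0.77 ± 0.53 for CUP1, -0.59 ± 0.34 for CRS5, 0.41 ± 0.40 for CTR1 and -0.05 ± 0.23 for CUP2, with adjusted p from 0.211 to 0.9.

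The 25 other copper genes were also compared with age on glucose. At 48 h 3 of 25 rose (12%, beside 19.7% of all genes) and 7 fell (28%, beside 27.6%). The rises were PCA1, a cadmium and copper exporting ATPase, BSD2, and SCO2. The falls included IRC7 at 585 against 1246 at log phase (-1.05 ± 0.14, adjusted p = 0.000693) and CCS1 at 951 against 1779 (-0.77 ± 0.11, adjusted p = 0.000728). The median of the 25 was -0.16 beside -0.12 over all genes. The direction of COX19 and COX23 depended on the scaling (-0.72 and -0.99, against 0.11 and 0.09 on the deposited scale), and of the 7 falls IRC7, CCS1 and CMC1 also passed there. At 24 h 1 rose (4%, beside 11.6%) and 5 fell (20%, beside 13.7%), with a median of -0.09 beside -0.07. On galactose 1 of 25 passed at 24 h, CCC2, the copper pump that supplies the iron oxidase Fet3, at 340 against 542 at log phase (-0.72 ± 0.09, adjusted p = 0.00908), and none passed at 48 h, where FET3 had adjusted p = 0.0139.

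The remaining carbon sources had 1 or 2 libraries. On fructose, a sugar fermented like glucose, CTR1 stood at 943 and 1071 at 48 h, against 2015 and 2144 at log phase, and CUP2 at 514 and 487 at 48 h, against 228 and 201 at log phase. CTR1 fell (-0.97 ± 0.12, adjusted p = 0.00918) and CUP2 rose (1.00 ± 0.11, adjusted p = 0.00774), as 12.4% of genes changed. With the experiment as a block their adjusted p was 0.0224 and 0.0227, and in each of the 4 fits without a library it was at least 0.0316. Against glucose at the same age no gene at all passed at log phase or 48 h (0% of 5832 and 0% of 6112 genes in limma, with 338 and 346 at an unadjusted p under 0.05), and the difference of CUP1 was -0.23 ± 0.16 at log phase and 0.32 ± 0.29 at 48 h. One fructose library at 24 h, of the unnumbered experiment, had CUP1 at 31.6, against 144 in the E34 library. CUP1-1 had 26 reads there, a normalised count of 32.2 with a 95% exact Poisson interval of 21.1 to 47.2, which covers counting error only.

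On raffinose CUP1 stood at 95 at log phase and 58.5 at 48 h, and on raffinose plus galactose at 171, 105 and 155 at log phase, 24 h and 48 h. Sucrose gave 181, 143 and 211 at those ages. On acetate, which yeast can only respire, CTR1 ran in the other direction from every other carbon source, with 440 in log phase cells, 2307 at 48 h and 5010 at 72 h, while the single glucose library at 72 h held 994. CUP1 on acetate stood at 268, 158 and 174 at those ages. These groups have 1 library each and were not tested, and acetate, raffinose and the 72 h samples all came from experiment E61, so medium and experiment cannot be told apart between them and the other sugars.

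**Figure D2:**
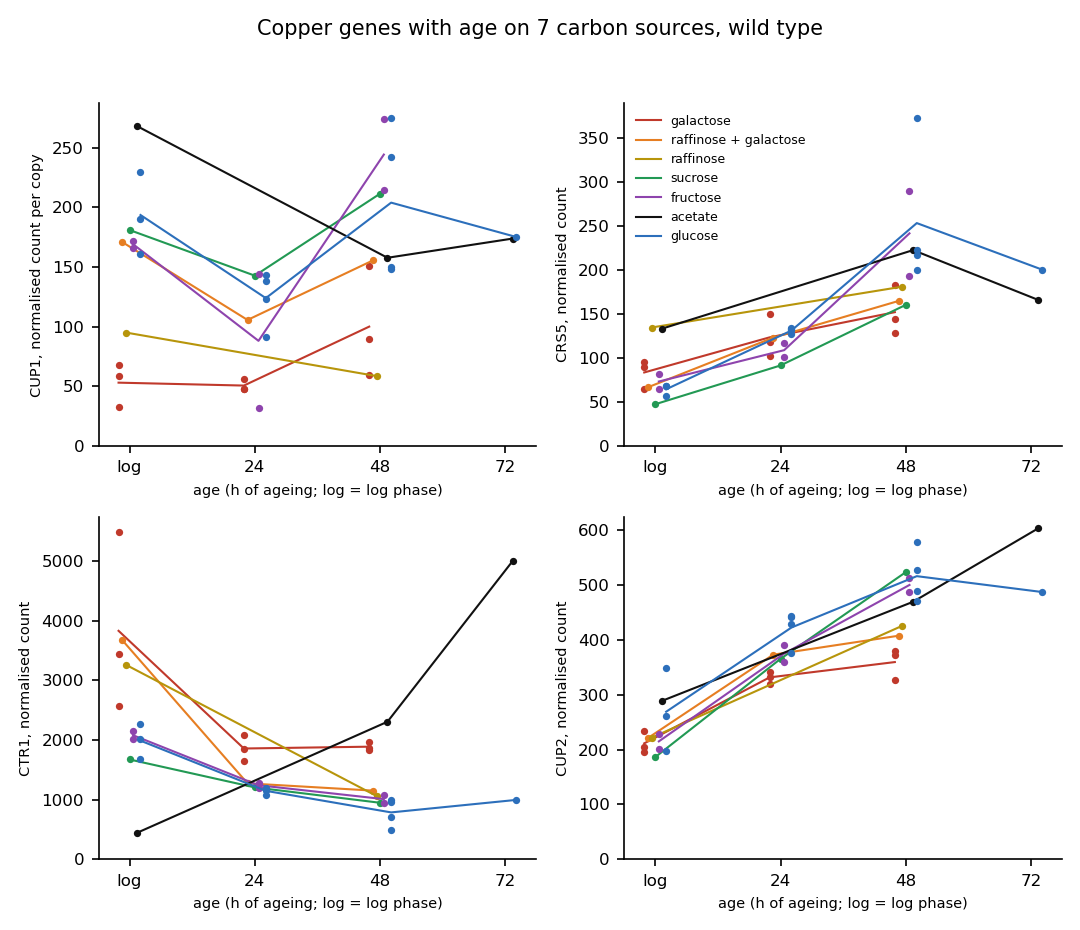
Normalised counts of the 4 genes against age (log phase, then 24, 48 and 72 h of ageing) for wild-type cells on 7 carbon sources, with 1 point per library and lines through the means. CTR1 on acetate ended at 5010 at 72 h, while on the other carbon sources it was lower at 48 h than at log phase, and CUP2 was higher at 48 h than at log phase on every carbon source.

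Across the 59 libraries of the main table, the genes whose log2 pattern was most like that of CTR1 by Pearson correlation among 5646 genes were MRPL35 (0.792), MRPL17 (0.760) and NAM9 (0.759), each a component of the mitochondrial ribosome. For CUP1 they were TOP1 (0.616), TAF7 (0.615) and PDR12 (0.613). CTR1 correlated at 0.581 with SOD1, 0.519 with FRE1, -0.328 with CUP1, -0.555 with CUP2 and -0.559 with CRS5, and CUP1 at 0.416 with CUP2, its activator. The libraries share media, ages and experiments, so these values describe the table and carry no test.

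The media shift experiment E53 asked which sugar, that of the first or of the second period, the transcripts follow. CTR1 levels were separated by the sugar in which cells were harvested, with the difference past the threshold only for cells that began on galactose, while CUP1 and CRS5 in cells harvested from galactose were higher where the first sugar had been glucose. The labels call the shifted samples log phase, but the study describes a move at 24 h and harvest at 48 h, and the MEP target gene UBC9, whose level is lower in aged mothers, stood at 63.2 ± 39.2 in glucose to glucose cells against 507 ± 49.1 in log phase cells on glucose (SD, n = 3 each). The shifted samples are treated as aged here.

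In log phase cells of E53 the same sugars were compared. CUP1 stood at 71.5, 84.6 and 62.2 on galactose, against 214, 183 and 161 on glucose, replicates 1 to 3 in order, and CTR1 at 2641, 3329 and 3607 on galactose, against 1434, 2048 and 2045 on glucose. CUP1 fell (-1.59 ± 0.16, adjusted p = 0.000301) and the call held without any 1 of the 6 libraries and with the replicate as a block (adjusted p = 0.00131). CTR1 rose (0.84 ± 0.18, adjusted p = 0.00777) and CUP2 fell (-0.42 ± 0.08, adjusted p = 0.00544), each also in 1 of 6 fits without a library, with adjusted p up to 0.0273 and 0.0194. On the deposited scale CUP2 was at -0.17 with adjusted p = 0.11, and CRS5, at -0.05 ± 0.12 here, was at 0.36. In this comparison 54.3% of all genes passed in either direction, with 40.1% of the calls rises, or 50.7% on the deposited scale. At 24 h none of the 4 passed where 4.09% of genes did, with CUP1 at -0.94 ± 0.21 (adjusted p = 0.0381) and CTR1 at 0.95 ± 0.17 (adjusted p = 0.0172, and 0.00635 with the replicate as a block).

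Glucose to galactose cells were set against glucose to glucose cells, which share the first sugar. CTR1 stood at 1223, 1600 and 1209 after the move to galactose, against 781, 711 and 614 in cells kept on glucose, with no overlap (0.91 ± 0.14, adjusted p = 0.0144). No member passed, and 2.96% of genes did. CUP1 stood at 157, 141 and 143 after the move, against 160, 304 and 173 (-0.47 ± 0.24, adjusted p = 0.247), under every kept library but by little.

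Galactose to glucose cells, set against galactose to galactose cells, had CTR1 at 664, 781 and 699, against 1223, 1744 and 1339. CTR1 fell (-0.96 ± 0.15, adjusted p = 0.00882) and CUP2 rose (0.39 ± 0.05, adjusted p = 0.00649), as 6.5% of genes passed. CUP1 stood at 128, 130 and 103 after the move to glucose, against 78.0, 55.0 and 86.3 in cells kept on galactose, with no overlap (0.74 ± 0.17, adjusted p = 0.0337). With the replicate as a block adjusted p was 0.0105 for CTR1 and 0.0228 for CUP2, and both calls were lost in each of the 6 fits without a library (adjusted p up to 0.0329).

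Cells harvested from galactose differed by their first sugar. CUP1 stood at 157, 141 and 143 in glucose to galactose cells, against 78.0, 55.0 and 86.3 in galactose to galactose cells, and rose (0.85 ± 0.15, adjusted p = 0.00974). CRS5 stood at 224, 238 and 229, against 163, 148 and 164, and rose (0.35 ± 0.06, adjusted p = 0.00793, and 0.54 on the deposited scale). CTR1 stood at 1223, 1600 and 1209 in glucose to galactose cells, against 1223, 1744 and 1339, and the groups overlapped fully (-0.02 ± 0.17, adjusted p = 0.919). Here 12.9% of genes passed. Both calls were lost with the replicate as a block (adjusted p = 0.0198 and 0.0243) and in each of the 6 fits without a library (adjusted p up to 0.0379 and 0.0295). From CUP1-1 or CUP1-2 alone, without the sum, the CUP1 difference was 0.66 or 0.68 and did not pass. For cells harvested from glucose, galactose to glucose against glucose to glucose, no gene passed (0% of 6186 in limma, with 2096 at an unadjusted p under 0.05). There CUP1 was at -0.64 ± 0.26 (adjusted p = 0.145), CRS5 at -0.38 ± 0.11 (adjusted p = 0.077) and CTR1 at 0.05 ± 0.12 (adjusted p = 0.804). Replicate 3 of glucose to galactose and of glucose to glucose ran on another lane than the rest of E53.

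The unshifted arms were set against log phase cells of the same sugar. Glucose to glucose cells had CRS5 at 227, 293 and 264, against 67.5, 72.1 and 76.4 in log phase cells on glucose, and CRS5 rose (1.09 ± 0.12, adjusted p = 0.000552, and 1.85 on the deposited scale). CUP2 rose (0.83 ± 0.10, adjusted p = 0.000683) and CTR1 fell (-1.33 ± 0.16, adjusted p = 0.000709). All 3 calls held without any 1 of the 6 libraries, and 58.7% of all genes passed in this comparison (rises were 42.5% of calls, or 56% on the deposited scale). Galactose to galactose cells against log phase cells on galactose had CRS5 at 163, 148 and 164, against 88.9, 110 and 80.8, and 29.9% of genes passed. There CUP2 rose (0.75 ± 0.05, adjusted p = 0.000293, held without any 1 library), CRS5 rose (0.51 ± 0.10, adjusted p = 0.00984, held in 1 of 6 such fits) and CTR1 fell (-1.13 ± 0.17, adjusted p = 0.00382, held in 2 of 6). CUP1 did not pass in either arm, at -0.10 ± 0.29 and -0.21 ± 0.21. The 2 arms and the shift comparisons share libraries, so they are not independent of each other.

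**Figure D3:**
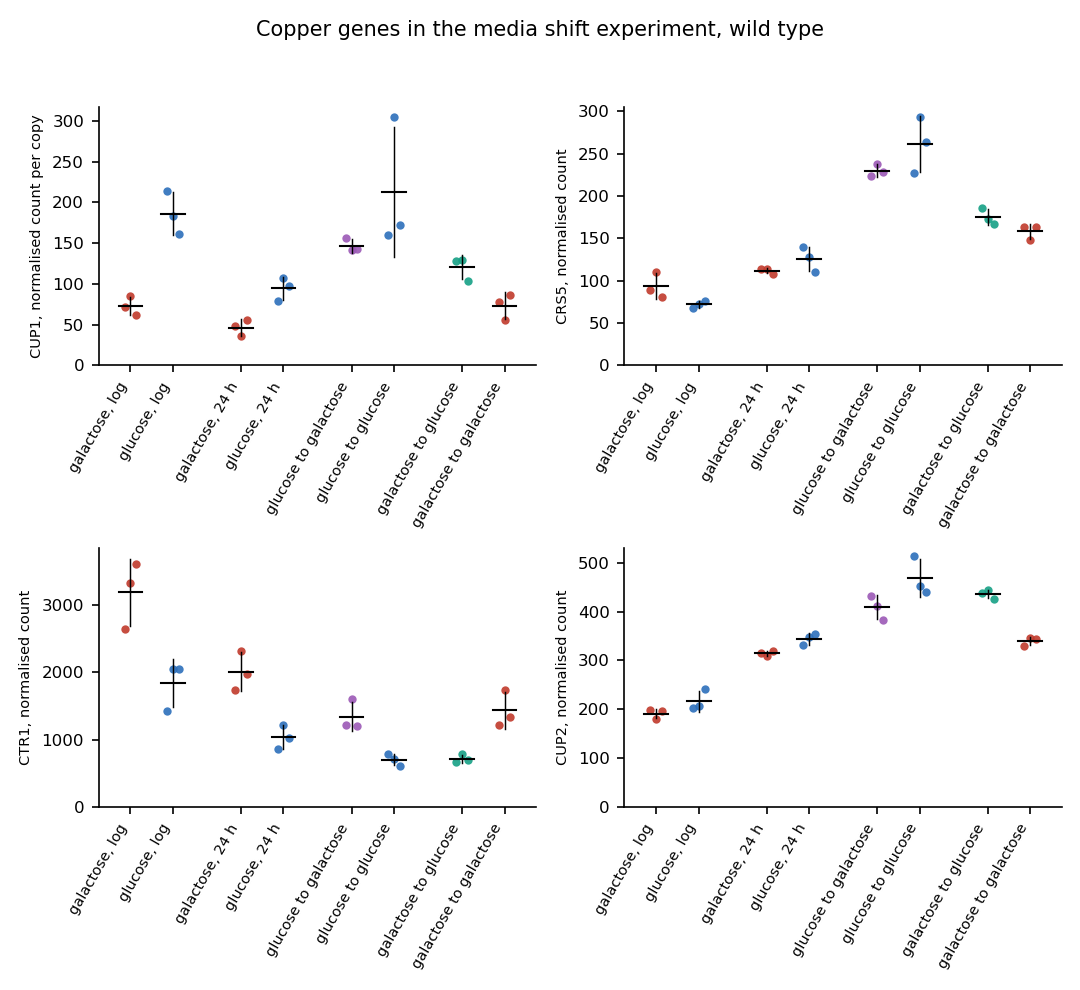
Normalised counts of the 4 genes in experiment E53, by sugar at log phase and 24 h and by first and second sugar in the shifted cells, with 1 point per library, the mean as a horizontal line and 1 SD as a vertical line. CTR1 in cells harvested from galactose lay between 1209 and 1744 whichever the first sugar, against 614 to 781 in cells harvested from glucose.

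Among the 25 other copper genes in log phase cells of E53, 12 rose (48%, beside 21.8% of all genes) and 3 fell (12%, beside 32.5%) on galactose, with a median of 0.29 beside -0.11 over all genes. FRE7, a copper reductase under Mac1, stood at 467 on galactose and 79.2 on glucose (2.30 ± 0.33, adjusted p = 0.00139), COX17 at 445 on galactose and 220 on glucose (0.86 ± 0.04, adjusted p = 1.52e-05) and SOD1 at 10129 on galactose and 8030 on glucose (0.60 ± 0.05, adjusted p = 0.000116). The falls were FET4, at 193 on galactose and 1196 on glucose, IRC7 and CCS1. FET4 rose after the move from galactose to glucose, at 818 against 355 in galactose to galactose cells (1.24 ± 0.07, adjusted p = 0.000285). SCO1 rose after the move from glucose to galactose, at 474 against 348 in glucose to glucose cells (0.46 ± 0.05, adjusted p = 0.00606).

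HAP4 overexpression asked whether forced respiration on glucose changes the genes. CTR1 stood at 3656 and 3334 at log phase in Pgpd-HAP4 cells, against 2018, 2261 and 1688 in wild type, and at 1706 and 1660 at 24 h, against 1155, 1079, 1154 and 1198. The groups were apart at both ages, with differences of 0.81 ± 0.12 (adjusted p = 0.0318) and 0.51 ± 0.07 (adjusted p = 0.0135), and neither passed. At 48 h the difference was 0.49 ± 0.31 (adjusted p = 0.839). Of all genes 1.77% passed at log phase, 1.32% at 24 h and 0% of 6127 at 48 h in limma, with 508 there at an unadjusted p under 0.05. CUP1 passed at no age, with differences of 0.13 ± 0.18, 0.36 ± 0.23 and 0.07 ± 0.28. Between log phase and 48 h in Pgpd-HAP4 cells CTR1 fell to 1171 and 980 (-1.48 ± 0.13, adjusted p = 0.00469) and CUP2 rose to 492 and 466, against 301 and 287 at log phase (0.51 ± 0.07, adjusted p = 0.00877), as 28.3% of genes passed. Their adjusted p was 0.0128 and 0.0201 with the experiment as a block, and at least 0.0297 in each of the 4 fits without a library.

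Deletion mutants on galactose asked whether Cat8, an activator of gluconeogenic genes, Snf4, a subunit of the Snf1 kinase, or Cox9, a subunit of cytochrome c oxidase (with Gal80, the repressor of galactose genes, also deleted), are needed. No member passed in any of the 7 comparisons with wild type on galactose. All mutant libraries came from experiment E56, while wild type also included libraries of E34 and of the unnumbered experiment. Strain and experiment therefore cannot be fully told apart. With the experiment as a block some differences changed sign, as listed at the end. Among them were CTR1 in cat8 cells at log phase (0.37) and CUP1 in cox9 gal80 cells at 48 h (0.58). The share of all genes that passed was 0.0678%, 0.35% and 0.265% for cat8 and 0.0507%, 0.364% and 0.163% for cox9 gal80, at log phase, 24 h and 48 h each, and 2.04% for snf4 at 24 h. The nearest to the threshold was CTR1 in snf4 at 24 h, at 1036 and 1110, against 2076, 1856 and 1640 in wild type (-0.75 ± 0.12, adjusted p = 0.0188), with no overlap. The single snf4 library at log phase had CTR1 at 1399, against 2565 to 5498 in wild type. CUP1 in cox9 gal80 cells at 24 h stood at 89.3 and 74.5, against 47.2, 56.3 and 48.0 in wild type (0.60 ± 0.13, adjusted p = 0.0883). None of the 25 other copper genes passed in these 7 comparisons.

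Deletion mutants on glucose, with 1 library per strain and age, have no replicate check and were set against the mean of 2 wild-type libraries by fold alone. At 48 h CTR1 was more than 2-fold above wild type in 7 of 13 strains, at 3498 in hap4, 3445 in mig1, 2655 in cat8, 1796 in dot6 tod6, 1738 in tec1, 1534 in adr1 and 1524 in snf4, against a wild-type mean of 753. The wild-type libraries stood at 1012 (E30) and 495 (unnumbered), and in a comparison added after seeing the data 3 of 13 strains (hap4, mig1 and cat8) were past 2-fold above the E30 library alone and 11 of 13 above the unnumbered library alone. Across all genes and strains at 48 h 5.85% of differences were past 2-fold in either direction, and at log phase 4.39% were. CTR1 lay above the wild-type mean in all 13 strains at both ages, and above the E30 library in 12 of 13 at log phase and 11 of 13 at 48 h. The strains came from experiments E51 and E57 and the wild-type libraries from E30 and the unnumbered experiment, so strain and experiment cannot be told apart. At log phase no member was past 2-fold from the wild-type mean in any strain, and CTR1 ran between 2201 and 3766, against a wild-type mean of 2186.

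CUP1 was past 2-fold from the wild-type mean at 48 h only in gcn4, at 91.0 against 201 (in none against the E30 library at 154, and in 3 against the unnumbered library at 248), and in the single 24 h mutant library, pmr1, at 52.6 against 144. At log phase it was past 2-fold lower than the E30 library in gcn4 and hap4 and higher than the unnumbered library in mig1. It ranged from 106 in gcn4 to 378 in mig1 at log phase. CRS5 was past 2-fold from the mean only in cat8 at 48 h, at 139 against 294. That mean is of libraries at 205 (E30) and 382 (unnumbered), and no strain was past 2-fold from the E30 library, while 4 were lower by that much than the unnumbered library, the highest of its group in the main table. CUP2 stood apart in pmr1, which lacks a calcium and manganese pump of the Golgi. It was at 530 in log phase cells, 783 at 24 h and 1067 at 48 h, against wild-type means of 312, 419 and 492, and in the other 12 strains it ran up to 272 at log phase and 751 at 48 h. PMR1 (YGL167C, VII:187616-190468, minus strand) is the neighbour of CUP2 and is transcribed away from it, with 660 bases between their start codons, so the deleted gene borders the CUP2 promoter, and its part in the CUP2 level was not tested. Within the 13 strains CRS5 and CUP2 were higher at 48 h than at log phase in 13 of 13, and CTR1 and CUP1 lower in 11 of 13.

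**Figure D4:**
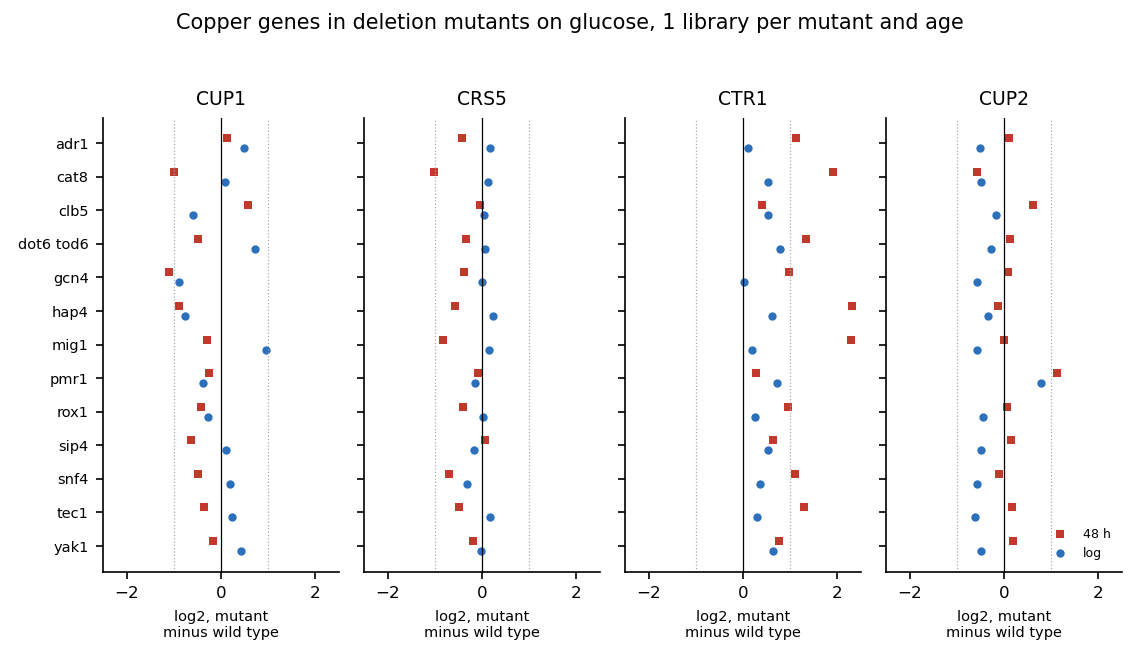
Log2 difference of each deletion mutant on glucose from the wild-type mean of the same age, at 48 h (squares) and log phase (circles), for the 4 genes, with 1 library per strain and age and dotted lines at 2-fold. CTR1 at 48 h lay furthest from wild type in hap4 (2.31) and mig1 (2.28), and CUP2 in pmr1 (1.12).

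Low WGA fractions of 48 h Pgpd-HAP4 cells were set against high WGA fractions. CTR3, FRE1 and FRE7 of copper uptake and PCA1 were higher in the low fraction. CTR3, a second copper transporter whose promoter holds a transposon in many laboratory strains, stood at 797 and 917, against 52.4 and 60.8 in the high fraction, and FRE1 at 12842 and 14587, against 1236 and 1439. CTR3 rose (3.92 ± 0.26, adjusted p = 0.0017), as did FRE1 (3.36 ± 0.26, adjusted p = 0.00217), FRE7 (2.29 ± 0.26, adjusted p = 0.00534) and PCA1 (1.73 ± 0.25, adjusted p = 0.00876), while 11.4% of genes rose and 3.21% fell. Of the 25 genes 4 rose and none fell, with a median of -0.28 beside 0.11 over all genes, and with quantile normalisation CTR3 and FRE1 alone passed. In wild type the single low fraction had CTR3 at 364 and FRE1 at 6124, against CTR3 at 54.2 and FRE1 at 1316 in the single high fraction.

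CTR1 stood at 365 and 713 in the low fraction, against 1317 and 1317 in the high fraction (-1.37 ± 0.39, adjusted p = 0.0442), and CRS5 at 614 and 510, against 199 and 213 (1.44 ± 0.26, adjusted p = 0.0133, and 0.00633 with the experiment as a block). Neither passed, where 14.6% of all genes did, and in neither did the groups overlap. In wild type the order of CTR1 was the reverse, at 1599 in the low and 1156 in the high fraction, and CRS5 stood at 260 in the low and 305 in the high fraction. The CUP1 copies held 39 and 38 of the 561582 reads of the wild-type low library. They held 206 each of the 5389581 reads of the wild-type high library, a smaller share. CUP1 had no common direction between the Pgpd-HAP4 experiments. In experiment E66 it was at 809 in the low fraction and 439 in the high fraction, and in E36 at 13.8 and 192, where the low fraction held 1 read at CUP1-1 and 0 at CUP1-2 (1 read is a normalised count of 14.6, 95% exact Poisson interval 0.369 to 81.1). The difference of -1.46 ± 1.94 (adjusted p = 0.57) rests on that library, and without the E36 low library it was 1.48. YHR054C, the open reading frame between the CUP1 copies, was at 262 to 884 in the low fraction and 30.2 to 50.7 in the high fraction (3.62 ± 0.66, adjusted p = 0.0141). It lies within the identical stretch, whose other copy covers part of RSC30, so its reads cannot be told from reads of that part. RSC30 was at a mean of 552 in the low fraction and 193 in the high fraction (1.45 ± 0.39, adjusted p = 0.0376).

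Other signals moved with the low fraction. Of the 10 genes that diploids silence, HO among them, 9 were higher in both low libraries than in any high library. The share of all genes placed in this way was not counted, and 11.4% of all genes rose by limma here. Their summed levels were 2661 to 3062 against 1103 to 1177, and MFA1 stood at 146 to 503 against 5.07 to 6.35. GAL1 was at 364 and 2282 in the low fraction against 61.9 and 166 in the high fraction, although the cells grew on glucose. None of the 10 was at 0 in every library of either fraction, and their part in the copper gene results was not tested. The low fractions of Pgpd-HAP4 cells were also shallow, at 565971 (E36) and 2256787 (E66) reads, against 5455873 and 5483467 in the high fractions. So was the single low fraction of wild type, at 561582 reads against 5389581 in its high fraction. The medium fraction, with CUP1 at 522 and 461, CRS5 at 206 and 184, CTR1 at 1006 and 1088 and CUP2 at 728 and 773, lay near the high fraction for CRS5.

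**Figure D5:**
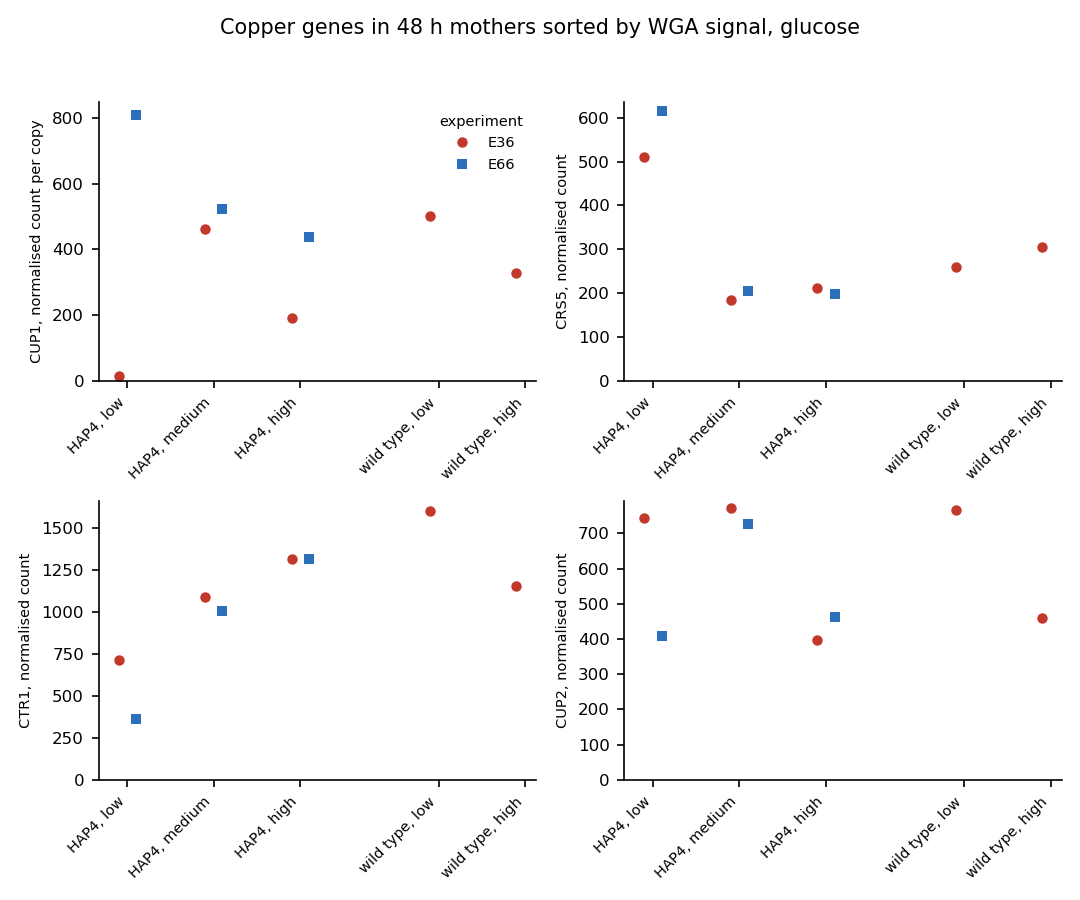
Normalised counts of the 4 genes in WGA fractions of 48 h cells on glucose, for Pgpd-HAP4 cells (low, medium, high) and wild type (low, high), with 1 point per library and the experiment shown by marker. CRS5 stood at 510 and 614 in the low Pgpd-HAP4 fraction, above the other fractions, and the E36 low library was near 0 for CUP1.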

How the data were processed

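Poly(A) RNA of yeast cultures was sequenced as 75 bp single-end reads from the strand opposite to the gene. The authors trimmed reads with Trim Galore 0.6.6, aligned them with HISAT2 2.1.0 and counted them in SeqMonk, and the values they deposited are log2 counts normalised by size factors. The files hold 118 samples in 128 columns of 4 tables. Normalised counts here are these log2 values raised to base 2. Whole reads were recovered from the steps of low values (100% of values of up to 50 reads lay within 0.02 of a whole number), and 0 reads had been placed at 0.9 of 1 read. Count models were not used, since the deposited unit is log2.

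Groups came from the sample labels. Each comparison used limma 3.58.1 (R 4.3.3) on values quantile-normalised within the groups compared, keeping nuclear genes whose mean log2 reached 2 in either group. Sorted fractions were tested on the deposited scale with a minimum of 4. The threshold was a Benjamini-Hochberg adjusted p of 0.01. The rows of CUP1-1 and CUP1-2 were summed. Single libraries were described by fold without a test. The study calls its replicates biological, and the labels do not say which libraries share a starting culture, so p-values measure the spread between these samples. Intervals cover counting error only. On simulated data 200 genes were changed by 1.5 on the log2 scale and all others left unchanged. Of these, 75.5% were recovered for galactose against glucose at log phase and 94.5% at 48 h. For glucose to galactose against glucose to glucose 98% were recovered, for the interaction 87.5%, and for the sorted fractions 0%. In the real sorted fractions 14.6% of genes passed, so the 0% does not give the share that the real test can find.

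The alternatives were the deposited scale, other filters, one fit over all groups, either CUP1 copy alone, a block for the experiment or replicate number, and each library left out. Mutants on glucose were also set against each wild-type library alone, a choice made after seeing the data. Same-experiment libraries deviated together in most comparisons with a block value (correlations of 0.368 to 0.643 for galactose against glucose at log phase). For age on glucose libraries share experiments by label, with correlations of 0.0883 to 0.252 at 24 h and -0.0511 to 0.0942 at 48 h. Genes named are the members and 25 other copper genes in 4 lists. The members and lists were chosen with earlier results of these data known. Promoters and positions were read from the R64 RefSeq genome, and 5980 of 5988 matched genes had the same coordinates as the files.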

Additional observations from a re-analysis of the deposited data

Results flagged for a closer look

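CRS5 on glucose at 48 h had 1 library far from the rest, that of the experiment without a number in the labels, at 373 normalised counts against 200 to 222 in the other 3. Its gap to the nearest library was 0.832 of the range of the group. In all 8 values were looked at in this way, 4 genes in 2 groups of 4 libraries, and chance alone marks about 1 in 20. Without that library the difference between 48 h and log phase on glucose for CRS5 was 0.90 on the log2 scale (limma, adjusted p = 0.000542), and so passed the threshold still.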

How the results depend on the processing

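Values here are log2 differences, and calls gained or lost in the comparisons over age on fructose and in Pgpd-HAP4 cells, and CTR1 calls gained in Pgpd-HAP4 or snf4 cells against wild type at 24 h, are counted but not listed. Of 124 differences of the members, 26 passed the threshold. Over 1406 alternatives 1180 kept both direction and side of the threshold, and no difference that passed changed direction under any of those run.

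On the deposited scale, without quantile normalisation, the following changed sign. For galactose against glucose, log phase it was CRS5 0.36. For glucose, 48 h against log phase it was CUP1 0.036. For cox9 gal80 against wild type on galactose, 48 h it was CUP1 0.067 and CRS5 0.092. For snf4 against wild type on galactose, 24 h it was CRS5 0.085. For E53, galactose against glucose, log phase it was CRS5 0.36. For E53, glucose to glucose against glucose log phase it was CUP1 0.14.

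On the deposited scale, without quantile normalisation, the following lost the call. Galactose against glucose, 24 h gave CUP2 -0.35. E53, galactose against glucose, log phase gave CUP2 -0.17.

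On the deposited scale, without quantile normalisation, the following gained a call. For galactose against glucose, 48 h it was CTR1 1.32 and CUP2 -0.52. For galactose, 48 h against log phase it was CUP2 0.77.

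With a minimum mean log2 of 4 the following gained a call. For galactose against glucose, 48 h it was CTR1 1.21 and CUP2 -0.48. For E53, galactose against glucose, 24 h it was CTR1 0.95. For E53, glucose to galactose against glucose to glucose it was CTR1 0.91.

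With no filter on low values the following lost the call. Galactose against glucose, log phase gave CUP1 -2.14. Glucose, 48 h against log phase gave CUP2 0.72. E53, galactose against glucose, log phase gave CTR1 0.84 and CUP2 -0.42. E53, galactose to glucose against galactose to galactose gave CTR1 -0.96. E53, glucose to galactose against galactose to galactose gave CUP1 0.85. E53, galactose to galactose against galactose log phase gave CRS5 0.51.

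In 1 fit over all groups of a table the following lost the call. Galactose against glucose, 24 h gave CTR1 0.63. Glucose, 24 h against log phase gave CRS5 0.35.

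In 1 fit over all groups of a table the following gained a call. For galactose against glucose, log phase it was CTR1 0.86 and CUP2 -0.48. For galactose against glucose, 48 h it was CTR1 1.28 and CUP2 -0.52. For glucose, 24 h against log phase it was CUP2 0.51. For galactose, 24 h against log phase it was CTR1 -0.88 and CUP2 0.59. For galactose, 48 h against log phase it was CTR1 -0.85 and CUP2 0.68. For E53, galactose against glucose, 24 h it was CUP1 -0.95 and CTR1 0.92. For E53, glucose to galactose against glucose to glucose it was CTR1 0.97. For E53, galactose to glucose against glucose to glucose it was CRS5 -0.44. For HAP4 overexpression, low WGA against high WGA it was CRS5 1.44 and CTR1 -1.37.

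With a replicate block for the experiment the following changed sign. For fructose against glucose, 48 h it was CUP1 -0.075 and CUP2 0.011. For cat8 against wild type on galactose, log phase it was CUP1 -0.10 and CTR1 0.37. For cat8 against wild type on galactose, 24 h it was CTR1 0.063. For cat8 against wild type on galactose, 48 h it was CRS5 0.019 and CTR1 -0.017. For cox9 gal80 against wild type on galactose, log phase it was CTR1 0.0062. For cox9 gal80 against wild type on galactose, 48 h it was CUP1 0.58 and CRS5 0.15. For change with age, galactose minus glucose, 48 h against log phase it was CUP2 0.017.

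With a replicate block for the experiment the following lost the call. Galactose against glucose, log phase gave CUP1 -2.09. Galactose against glucose, 24 h gave CUP1 -1.39 and CTR1 0.70 and CUP2 -0.32. Glucose, 24 h against log phase gave CRS5 0.40 and CTR1 -0.70. Glucose, 48 h against log phase gave CRS5 1.15 and CTR1 -1.39 and CUP2 0.66. E53, galactose to glucose against galactose to galactose gave CTR1 -0.96 and CUP2 0.39. E53, glucose to galactose against galactose to galactose gave CUP1 0.85 and CRS5 0.35. E53, galactose to galactose against galactose log phase gave CRS5 0.51.

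With a replicate block for the experiment the following gained a call. For E53, galactose against glucose, 24 h it was CTR1 0.95. For HAP4 overexpression, low WGA against high WGA it was CRS5 1.44.

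From CUP1-1 alone the following lost the call. E53, glucose to galactose against galactose to galactose gave CUP1 0.66.

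From CUP1-1 alone the following gained a call. For glucose, 24 h against log phase it was CUP1 -1.06.

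From CUP1-2 alone the following lost the call. E53, glucose to galactose against galactose to galactose gave CUP1 0.68.

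From CUP1-2 alone the following gained a call. For glucose, 24 h against log phase it was CUP1 -1.06.

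Leaving out 1 library at a time gave these lowest and highest differences. In galactose against glucose, log phase, the ranges were CUP1 -2.41 to -1.84 and CRS5 -0.14 to 0.18. In galactose against glucose, 24 h, the ranges were CUP1 -1.45 to -1.21, CRS5 -0.22 to 0.013, CTR1 0.56 to 0.74 and CUP2 -0.45 to -0.37. In galactose against glucose, 48 h, the range was CTR1 0.99 to 1.36. In glucose, 24 h against log phase, the range was CRS5 0.31 to 0.43. In glucose, 48 h against log phase, the ranges were CRS5 0.90 to 1.24, CTR1 -1.42 to -1.03 and CUP2 0.53 to 0.88. In galactose, 24 h against log phase, the range was CUP2 0.53 to 0.69. In fructose against glucose, log phase, the range was CRS5 -0.022 to 0.39. In fructose against glucose, 48 h, the ranges were CRS5 -0.29 to 0.25 and CUP2 -0.087 to 0.018. In HAP4 overexpression against wild type on glucose, log phase, the ranges were CUP1 -0.0010 to 0.26 and CUP2 -0.094 to 0.33. In HAP4 overexpression against wild type on glucose, 24 h, the range was CUP2 -0.092 to 0.019. In HAP4 overexpression against wild type on glucose, 48 h, the range was CUP1 -0.070 to 0.24. In cat8 against wild type on galactose, log phase, the ranges were CUP1 -0.27 to 0.28, CRS5 -0.30 to 0.019 and CTR1 -0.38 to 0.14. In cat8 against wild type on galactose, 48 h, the ranges were CTR1 -0.0047 to 0.14 and CUP2 -0.0093 to 0.098. In cox9 gal80 against wild type on galactose, 48 h, the ranges were CUP1 -0.65 to 0.54, CRS5 -0.34 to 0.18 and CUP2 -0.023 to 0.14. In snf4 against wild type on galactose, 24 h, the range was CRS5 -0.16 to 0.074. In E53, galactose against glucose, log phase, the ranges were CRS5 -0.19 to 0.043, CTR1 0.68 to 0.98 and CUP2 -0.46 to -0.33. In E53, galactose to glucose against galactose to galactose, the ranges were CTR1 -1.06 to -0.81 and CUP2 0.37 to 0.41. In E53, glucose to galactose against galactose to galactose, the ranges were CUP1 0.67 to 0.96, CRS5 0.31 to 0.39 and CTR1 -0.15 to 0.12. In E53, galactose to glucose against glucose to glucose, the ranges were CTR1 -0.054 to 0.13 and CUP2 -0.081 to 0.040. In E53, glucose to glucose against glucose log phase, the range was CUP1 -0.44 to 0.099. In E53, galactose to galactose against galactose log phase, the ranges were CUP1 -0.37 to 0.0052, CRS5 0.42 to 0.62 and CTR1 -1.29 to -1.03. In change with age, galactose minus glucose, 48 h against log phase, the range was CUP2 -0.22 to 0.13. In HAP4 overexpression, low WGA against high WGA, the ranges were CUP1 -4.39 to 1.48, CRS5 1.31 to 1.58, CTR1 -1.85 to -0.88 and CUP2 -0.067 to 0.80.

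Counts of genes past the threshold moved more than the members did, by over 1.5 times in 182 of 336 cases. The causes of these changes were not tested. With 2 libraries in a group, leaving 1 out assumes that the lone library varies like the other group. Depth limits the low WGA fractions most, where CUP1 rests on 1 read in 1 library.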
